A study of Mus musculus with 2 samples.

Results

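The Kruppel-like factors (KLF) measured here are 10 transcription factor genes, Klf2, Klf3, Klf4, Klf5, Klf6, Klf7, Klf9, Klf10, Klf11 and Klf13, taken by gene name from a table of 54713 genes and loci. They were chosen as family members that respond to serum, blood flow and stress, and each name matched a single row. The choice was made with earlier results of these data known. RNA was sequenced from 2 sublines of SV40 MES13, a mouse kidney line that the labels call mesangial cells. The Lv_AI662270 subline had been infected with a lentivirus for the long noncoding RNA AI662270 and is labelled as an overexpression genotype. The Lv_NC subline had received the control virus and is labelled as wild type. Selection used 0.5 mg/ml puromycin and culture continued in 0.25 mg/ml with 10% serum for both, neither had a further treatment, and the labels do not say whether a subline is a pool or a clone. Each group held 1 library, so the values below compare 2 libraries, not 2 conditions. No difference has a replicate check, and none was given a p-value here.

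KLF proteins end in C2H2 zinc fingers, which bind GC boxes and CACCC boxes in promoters, while the rest of the protein differs between members and recruits activators or repressors. In many cell types serum, growth factors, shear stress and inflammatory signals change KLF transcripts quickly, and many KLF RNAs and proteins are short-lived. In the glomerulus the family is best known from podocytes and endothelial cells, where Klf2, Klf4 and Klf6 have protective roles.

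The AI662270 library held 15062482 counts and the control library 15727023. The delivered transcript AI662270 had 241 counts in the AI662270 library and 0 in the control library, where a count of 0 leaves room for 3 counts, which is 0.197 CPM. CPM stands for counts relative to the scaled library size. Of 12 mesangial marker genes, 6 reached a mean of 1 CPM and 4 (Itga8, Thy1, Ptn and Ren1) had 0 counts in both libraries. The summed level of the mesangial list was 609 CPM in the AI662270 library and 243 CPM in the control library, mostly from Vim. Within it Gata3 had 25 counts in the AI662270 library and 76 in the control library, 3.12-fold lower. Serpine2 had 10 and 28 counts in the same order, 2.87-fold lower. The other measured markers of the list were higher in the AI662270 library. There Acta2 had 171 counts, Vim 8872, Des 58 and Pdgfrb 338, against 12, 3360, 26 and 185 in the control library. Of 7 tubule markers, Cdh16, Pax8 and Lrp2 were measured and the list summed to 446 CPM in the AI662270 library and 556 CPM in the control library, while Slc34a1, Umod and Aqp2 had 0 counts in both. The podocyte list had 2 of 6 genes measured and summed to 83.2 CPM in the AI662270 library and 149 CPM in the control library, with Nphs1 at 0. Within it Podxl was 2.90-fold lower, Synpo had 614 counts in the AI662270 library and 394 in the control library, and Wt1 had 22 in the AI662270 library and 0 in the control library. No endothelial marker of 7 was measured, and the list summed to 1.99 CPM in the AI662270 library and 0.987 CPM in the control library. The leukocyte list had 2 of 6 measured and summed to 14.6 CPM in the AI662270 library and 34.4 CPM in the control library, with Adgre1, Itgam and Cd3e at 0. Most of that sum was Csf1r, with 150 counts in the AI662270 library and 419 in the control library, 2.86-fold lower. Cd68 had 76 and 99 counts in the same order. The part of these markers in the KLF values was not tested.

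All 10 KLF genes were less abundant in the AI662270 library than in the control library, and for all 10 the counting interval of the ratio lay below 1. The interval lay below 1 for 35.8% of all measured genes and for 42.2% of those averaging 10 CPM or more. A gene counted as lower when its log2 ratio, computed with 0.5 CPM added to each level, was -1 or less and the 95% exact interval of its count ratio left out 1. By that rule 6 of the 10 members were lower and 0 were higher. Across all 13268 measured genes, those averaging 1 CPM or more, 5.72% were lower and 5.59% higher by the same rule. Among the 9771 genes averaging 10 CPM or more, the range in which all members lie, 5.05% were lower and 2.70% higher. The median log2 ratio was -1.07 over the 10 members and -0.02 over all measured genes. In bulk RNA such as this, fewer cells of a type and less RNA per cell cannot be told apart. Every member passed the filter on low values, with means over the 2 libraries from 12.8 CPM for Klf2 to 351 CPM for Klf6.

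**Figure D1:**
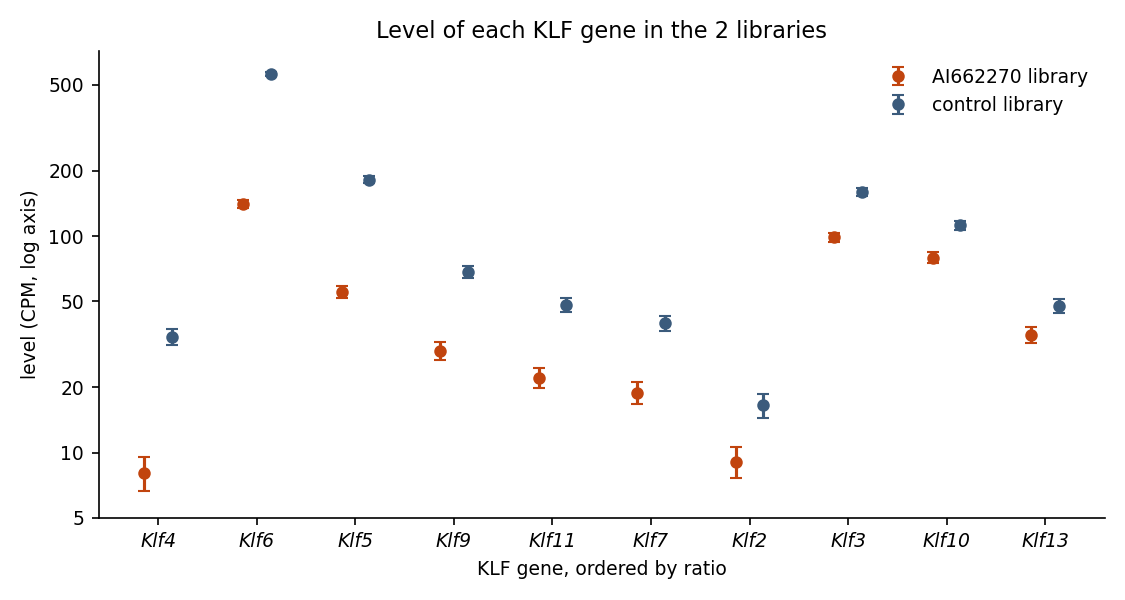
Level of each KLF gene in CPM on a log axis, with the AI662270 library left of the control library. Bars are 95% exact Poisson intervals for counting error. The AI662270 point is below the control point for all 10 genes, with the widest gaps for Klf4 and Klf6.

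Klf4 and Klf6 had the lowest ratios of the 10 members and were about equally reduced. Klf4, a zinc finger factor that restrains proliferation in epithelia and vessels and is a component of reprogramming cocktails, is encoded on the minus strand of chromosome 4 from 55527143 to 55532466 in build mm10. It had 125 counts in the AI662270 library and 519 in the control library, or 8.02 CPM and 34.1 CPM. Klf4 was 4.26-fold lower (95% exact interval 3.49 to 5.22, counting error only here and below). Klf6, an injury-response factor and regulator of TGF-beta pathway genes, is encoded on the plus strand of chromosome 13 from 5861482 to 5870394. Klf6 had 2183 counts in the AI662270 library and 8549 in the control library, or 140.1 CPM and 562 CPM, and was 4.01-fold lower (3.83 to 4.21). The intervals of Klf4 and Klf6 overlapped. Of all measured genes, 0.957% had a log2 ratio below that of Klf4 and 1.01% below that of Klf6.

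Klf5 followed in the order of ratios. It encodes a factor of proliferating epithelium and of smooth muscle remodelling, on the plus strand of chromosome 14 from 99298691 to 99315036. Klf5 had 860 counts in the AI662270 library and 2764 in the control library, or 55.2 CPM and 182 CPM. It was 3.29-fold lower (3.05 to 3.56), an interval that overlapped neither that of Klf6 nor that of Klf9, next to it in the order. It did overlap the wider interval of Klf4 (3.49 to 5.22). The authors' deposited table of 897 genes with an adjusted p-value under 0.05 listed 3 of the 10 members, Klf4, Klf5 and Klf6. Their log2 fold changes in the authors' deposited table were -2.09, -1.72 and -2.005. The 897 genes stand against 54713 genes and loci in all, of which only 13268 averaged 1 CPM or more, as all members did. How many of the 897 lie among those 13268 was not counted. The adjusted p-values are the authors' own and come from groups without replicate libraries, so they carry no replicate check either.

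Klf9, Klf11 and Klf7 were lower by a little more than 2-fold, and their intervals overlapped. Klf9, which glucocorticoid and thyroid hormone induce in several tissues, lies on chromosome 19 from 23141226 to 23166911. It had 460 counts in the AI662270 library and 1038 in the control library, or 29.5 CPM and 68.3 CPM, and was 2.31-fold lower (2.07 to 2.59). Klf11, a TGF-beta-inducible repressor that binds the SIN3A corepressor, lies on chromosome 12 from 24651274 to 24662789. Klf11 had 346 counts in the AI662270 library and 729 in the control library, or 22.2 CPM and 47.9 CPM, and was 2.16-fold lower (1.90 to 2.46). Klf7, a factor known from neuronal and adipose development, lies on chromosome 1 from 64029447 to 64122282. Klf7 had 295 counts in the AI662270 library and 603 in the control library, or 18.9 CPM and 39.7 CPM, and was 2.09-fold lower (1.82 to 2.42).

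Klf7 and Klf11 sat at the edge of the rule. The log2 ratio of Klf7 was -1.05 as reported and no longer reached -1 under 4 of 6 alternatives, at -0.95 with scaling by total counts, -0.98 by upper quartiles, -0.99 with 2 CPM added and -0.90 on deposited FPKM. That of Klf11 was -1.09 as reported and -0.997 with scaling by total counts. The member just outside the rule was Klf2, at -0.83, and its counting interval overlapped those of Klf9, Klf11 and Klf7.

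Klf2, Klf3, Klf10 and Klf13 did not reach the 2-fold rule. Klf2, the flow-induced factor of endothelium and of quiescent T cells, lies on chromosome 8 from 72319033 to 72321656. It had 141 counts in the AI662270 library and 251 in the control library, or 9.05 CPM and 16.5 CPM, a ratio of 0.548 (0.443 to 0.676). Klf3, a repressor that binds the CTBP corepressors, lies on chromosome 5 from 64803388 to 64832901 and had 1538 counts in the AI662270 library and 2427 in the control library. Its levels were 98.7 CPM and 159.6 CPM, a ratio of 0.618 (0.580 to 0.659). Klf10, the closest relative of Klf11 and likewise TGF-beta-inducible, lies on chromosome 15 from 38291463 to 38300706 and had 1240 counts in the AI662270 library and 1710 in the control library. Its levels were 79.6 CPM and 112 CPM, a ratio of 0.708 (0.657 to 0.762). Klf13, which in T cells activates the chemokine gene Ccl5, lies on chromosome 7 from 63886351 to 63938915 and had 543 counts in the AI662270 library and 724 in the control library. Its levels were 34.8 CPM and 47.6 CPM, a ratio of 0.732 (0.654 to 0.819).

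Some members that share an inducer differed in size of change, while the interval of Klf4 overlapped those of Klf5 and Klf6. Klf2 and Klf4 share the ERK5 and MEF2 pathway as a known inducer in endothelium, yet the ratio was 0.235 (0.192 to 0.286) for Klf4 and 0.548 for Klf2, with intervals that did not overlap. For the TGF-beta-inducible pair, the ratio of Klf11 was 0.463 (0.406 to 0.527) and that of Klf10 0.708, and these intervals did not overlap either.

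**Figure D2:**
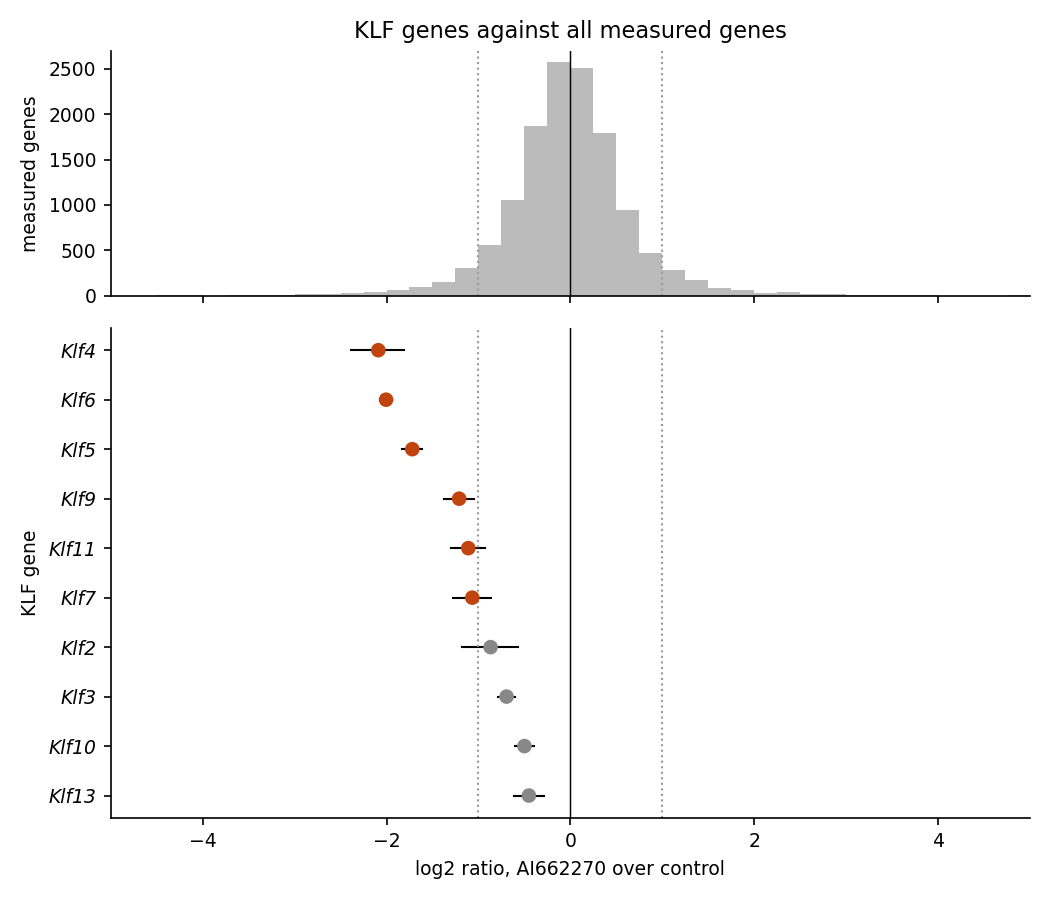
Upper panel, number of measured genes by log2 ratio, AI662270 library over control, with 0.5 CPM added, values beyond 5 in either direction drawn in the end bins. Lower panel, log2 ratio of each KLF gene without an added constant and its 95% exact interval; orange marks the 6 genes past the 2-fold rule and dotted lines stand at -1 and 1. All 10 points lie left of 0.

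Reads of overlapping genes were few. Klf2, Klf4, Klf5, Klf6, Klf10 and Klf11 overlapped no other gene of the table. The overlapping gene with the most reads was C230096K16Rik within Klf3, with 4 counts in the AI662270 library and 9 in the control library. The chromosome medians of the log2 ratio lay between -0.12 and 0.11 for the chromosomes of 9 members. Chromosome 12, which carries Klf11, had a median of -0.35 over 477 measured genes, of which 12.2% were lower. The part of that median in the value of Klf11 was not tested.

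The nearest measured genes beside the 6 lower members mostly stayed inside the rule, where 5.72% of all measured genes were lower and 5.59% higher. Their distances from the members ran from 3.04 kb for Cys1 to 1283 kb for Tmem2. Of 12 such neighbours 1 was lower and 0 were higher, and the other 11 had log2 ratios from -0.60 to 0.34. Beside Klf4 the DNA repair gene Rad23b had a log2 ratio of -0.09 and Ikbkap, an Elongator subunit gene, -0.51. Akr1e1 and Pitrm1 beside Klf6 had 0.08 and 0.33, Tmem2 and Smc5 beside Klf9 -0.06 and -0.18, and Fastkd2 and Creb1 beside Klf7 -0.23 and -0.60. Gm6969 and Cys1 beside Klf11 had 0.24 and -0.26, and Pibf1 beside Klf5 had 0.34. The exception was Klf12, 556 kb from Klf5 on chromosome 14 and itself a family member. Klf12, a repressor, had 10 counts in the AI662270 library and 95 in the control library and was 9.74-fold lower (5.07 to 21.0). The authors' deposited table lists Klf12 with a log2 fold change of -3.27.

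The summed KLF level was 496 CPM in the AI662270 library and 1270.4 CPM in the control library, 2.56-fold lower (2.49 to 2.63). The 10 genes took 0.0513% of all counts in the AI662270 library (0.0502 to 0.0525, exact binomial interval) and 0.123% in the control library (0.121 to 0.125). Without Klf6 the remaining 9 genes summed to 356 CPM in the AI662270 library and 708 CPM in the control library, 1.99-fold lower (1.92 to 2.05). Klf6 alone made up 28.2% of the KLF counts in the AI662270 library (27.2 to 29.3) and 44.3% in the control library (43.6 to 44.97). Klf3 made up 19.9% in the AI662270 library and 12.6% in the control library. Klf10 made up 16.0% in the AI662270 library and 8.85% in the control library. The shares of Klf4, Klf5 and Klf6 were smaller in the AI662270 library and those of the other 7 genes larger, although the level of every member was below that of the control library.

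**Figure D3:**
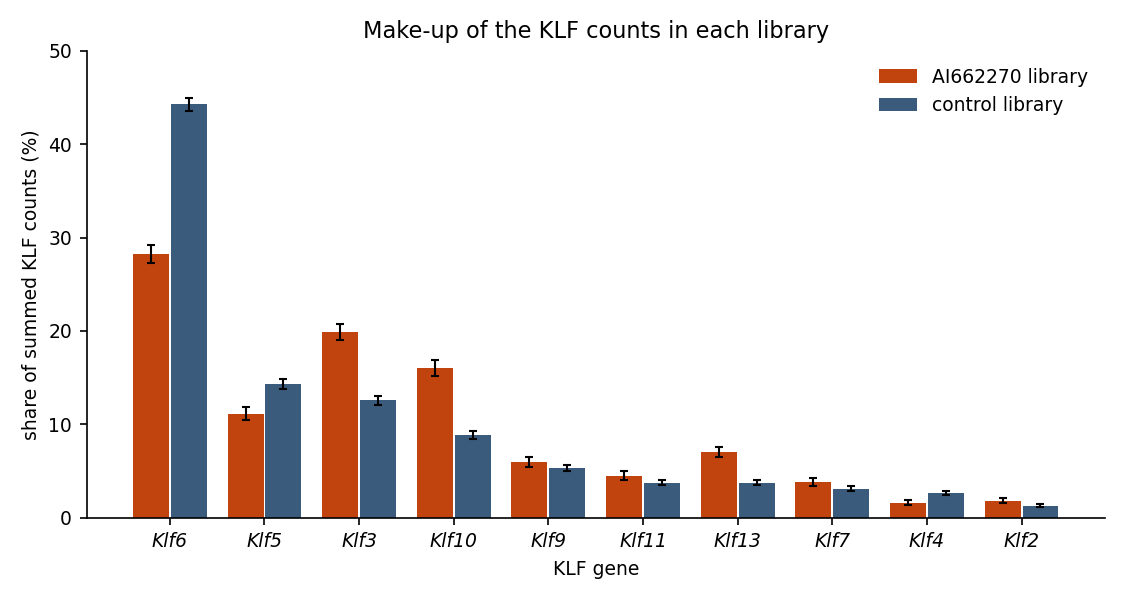
Share of the summed KLF counts held by each gene, in percent, with the AI662270 library left of the control library and 95% exact binomial intervals. Klf6 holds 28.2% in the AI662270 library and 44.3% in the control library, and the shares of all members but Klf4, Klf5 and Klf6 are larger in the AI662270 library.

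Levels of different genes were compared per kilobase of gene length. Klf6 led in both libraries, with 31.9 CPM per kilobase in the AI662270 library and 128 CPM per kilobase in the control library. In the AI662270 library Klf10 (19.0), Klf5 (10.6), Klf9 (9.05) and Klf3 (8.78) followed, then Klf11 (5.12), Klf2 (4.90), Klf13 (4.63), Klf4 (2.63) and Klf7 (2.33), all in CPM per kilobase. In that order the intervals of Klf9 and Klf3, of Klf11, Klf2 and Klf13, and of Klf4 and Klf7 overlapped. In the control library the order of CPM per kilobase was Klf5 (34.95), Klf10 (26.9), Klf9 (20.9), Klf3 (14.2), Klf4 (11.2), Klf11 (11.05), Klf2 (8.94), Klf13 (6.32) and Klf7 (4.88). There only Klf4 and Klf11 had overlapping intervals. Klf4 thus took place 9 of 10 in the AI662270 library and place 6 in the control library. The deposited length of Klf9 was 3263 bases, against 4815 bases of exons in the GENCODE M21 annotation, and with that length Klf9 and Klf3 changed places in both libraries.

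RefSeq promoter windows were at hand for 8 of the 10 genes and are described here without a test of their part in the ratios. Printed here, 5′ to 3′ on the gene's strand, are the 250 bases before the RefSeq start of the 2 most reduced members with a window, of Klf9, of Klf2 as a flow-responsive member and of Klf13 as the least reduced. Capitals mark matches, on either strand, to the GC box GGGCGG, the CACCC element, the loose AP-1 pattern TGANTCA or the MEF2 site. N stands for any base. The windows in build mm10 (RefSeq GRCm38.p6) are chr4:55532476-55532725 on the minus strand for Klf4, chr13:5861239-5861488 on the plus strand for Klf6 and chr19:23140976-23141225 on the plus strand for Klf9. Those of Klf2 and Klf13 are chr8:72318812-72319061 on the plus strand and chr7:63938916-63939165 on the minus strand.
Klf4: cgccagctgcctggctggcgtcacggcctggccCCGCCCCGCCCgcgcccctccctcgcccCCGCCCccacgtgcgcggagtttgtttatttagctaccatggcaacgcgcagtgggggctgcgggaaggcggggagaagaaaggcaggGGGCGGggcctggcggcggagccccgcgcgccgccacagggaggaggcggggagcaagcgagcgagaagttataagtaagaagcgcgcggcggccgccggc
Klf6: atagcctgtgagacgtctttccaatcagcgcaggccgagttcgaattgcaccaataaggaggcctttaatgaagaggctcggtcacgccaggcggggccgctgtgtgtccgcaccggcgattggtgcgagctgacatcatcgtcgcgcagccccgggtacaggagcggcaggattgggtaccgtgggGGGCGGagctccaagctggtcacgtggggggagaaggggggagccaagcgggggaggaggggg
Klf9: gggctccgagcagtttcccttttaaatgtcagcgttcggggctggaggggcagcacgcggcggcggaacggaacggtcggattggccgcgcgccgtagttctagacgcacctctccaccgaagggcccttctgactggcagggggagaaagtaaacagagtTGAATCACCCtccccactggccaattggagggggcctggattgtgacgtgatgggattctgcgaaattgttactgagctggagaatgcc
Klf2: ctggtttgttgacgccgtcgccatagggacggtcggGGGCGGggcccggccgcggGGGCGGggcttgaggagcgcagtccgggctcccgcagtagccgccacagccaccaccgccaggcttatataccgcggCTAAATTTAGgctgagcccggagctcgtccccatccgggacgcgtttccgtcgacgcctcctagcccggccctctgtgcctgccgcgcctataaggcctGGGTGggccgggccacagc
Klf13: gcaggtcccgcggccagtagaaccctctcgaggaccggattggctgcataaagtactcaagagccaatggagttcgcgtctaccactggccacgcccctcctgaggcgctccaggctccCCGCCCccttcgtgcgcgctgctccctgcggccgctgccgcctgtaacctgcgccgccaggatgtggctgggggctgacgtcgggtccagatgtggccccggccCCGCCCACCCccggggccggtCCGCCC

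GC boxes, the class of element that KLF and Sp proteins themselves bind, were the motif most of these windows shared. Of the 8 KLF windows 7 held at least 1 GC box, against 32.7% of 32841 RefSeq windows of the same length. Those 32841 windows were not limited to measured genes. The RefSeq start lay within 133 bases of the deposited gene start for 7 of the 8 and 893 bases from it for Klf7. The KLF windows had a GC content of 59.2% to 78.4%, against a median of 52.4% over all windows. Klf3 held 6 GC boxes, Klf4 and Klf11 4 each, Klf13 3, Klf2 2, and Klf6 and Klf7 1 each. CACCC was present in 5 of 8 KLF windows and in 52.0% of all windows. The window of Klf2 held a MEF2 site 118 bases before the start, a motif present in 2.92% of all windows. That of Klf9 held TGAATCA, a match to the loose AP-1 pattern TGANTCA. With any base at N, that pattern was present in 6.75% of all windows, and whether AP-1 binds the Klf9 match was not tested. The AP-1 match of Klf9 overlaps its CACCC match, and a CACCC match of Klf13 and of Klf3 overlaps a GC box. The CArG box of serum response factor, the cyclic AMP element TGACGTCA and TATAAA were in 0 of 8 KLF windows, and in 1.47%, 1.55% and 12.4% of all windows.

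**Figure D4:**
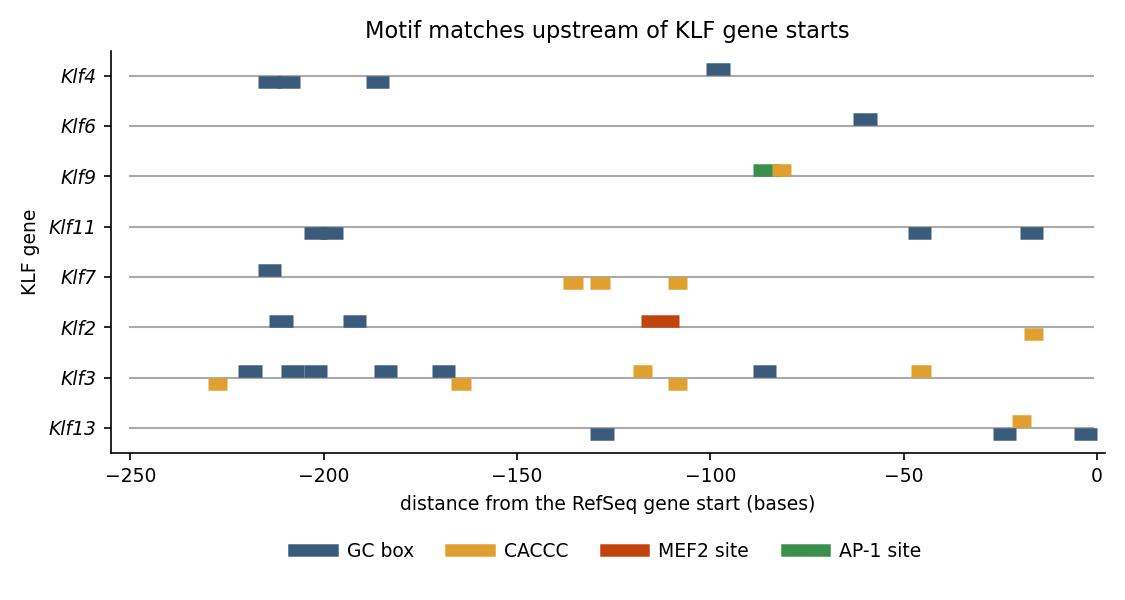
Motif matches in the 250 bases before the RefSeq start of 8 KLF genes, ordered from the lowest ratio at the top to the highest at the bottom. The horizontal axis is the distance from the start in bases, and marks above or below a line are matches on the gene's strand or the other strand. GC boxes appear in every row but that of Klf9, and the MEF2 site appears in the row of Klf2.

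AU-rich elements, which shorten the life of many early response RNAs, were counted as ATTTA in the longest annotated 3′ UTR of each gene. All 10 members held at least 1, as did 72.4% of 11443 measured genes. The 3′ UTRs of the members ran from 737 bases for Klf2 to 6266 bases for Klf7. The median over the 11443 genes was 1251 bases, and this presence count takes no account of length. Per kilobase of 3′ UTR 6 of 10 members were above the median of 1.37 in those genes, with the most in Klf7 (2.87 per kilobase, 18 in all) and the fewest in Klf5 (0.543 per kilobase, 1 in all). Klf4 had 1 and Klf6 7. The longer element TTATTTATT was in 0 members and in 8.73% of those genes.

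Among the other family members, Klf16, a GC-box-binding repressor, had 562 counts in the AI662270 library and 920 in the control library, a log2 ratio of -0.74. Klf15, known from podocytes and from metabolism, had 20 counts in the AI662270 library and 23 in the control library, a log2 ratio of -0.17. With Klf12, these were the 3 of 7 remaining Klf genes that reached 1 CPM. Of them 1 was lower and 0 higher. The related Sp genes had 1 lower and 1 higher of 6 measured, with a median of -0.51. Of all measured genes 5.72% were lower and 5.59% higher. Sp1 and Sp3, the widely expressed activators that share GC boxes with KLF proteins, had log2 ratios of -0.46 and -0.56. Sp2 and Sp4 had -0.78 and -0.33. Sp8 had 20 counts in the AI662270 library and 50 in the control library and was 2.56-fold lower (1.498 to 4.54). Sp5, a Wnt target in embryos, had 42 counts in the AI662270 library and 5 in the control library, a ratio of 8.20 (3.25 to 26.5). Of all 404 measured genes that the deposited table places in the C2H2 zinc finger family, 4.70% were lower and 5.94% higher. Without the 10 members, 13 of 394 were lower and 24 higher, and their median log2 ratio was 0.03. Of the 223 among them averaging 10 CPM or more, 6 were lower and 3 higher. Their median log2 ratio was -0.07.

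Genes that act upstream of KLF transcription were inside the rule with 1 exception. By the same rule 5.72% of all measured genes were lower and 5.59% higher. Of 9 transcription factors of the serum response 0 were lower and 0 higher, and 7 had log2 ratios below 0 (median -0.39). The cyclic AMP responsive factor gene Atf1 had a log2 ratio of -0.79 and Mkl1, a coactivator of serum response factor, -0.26. In the ERK5 and MEF2 list 1 of 9 measured genes was lower and 0 higher, with a median of -0.34. It was Mef2b, with 39 counts in the AI662270 library and 124 in the control library, 3.26-fold lower (2.26 to 4.80).

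Partners of KLF proteins showed no member past the rule in either direction, where 5.72% of all measured genes were lower and 5.59% higher. Among 12 cofactors the median log2 ratio was -0.01, and the abundant coregulator genes Ncor1 and Ep300 had -0.38 and -0.18. Among 10 ubiquitin ligases that act on KLF proteins the median was -0.12, and Smurf1 and Itch had 0.04 and -0.38.

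Genes known as KLF targets in other cell types went both ways, with 5 lower and 2 higher of 14 measured and a median of -0.32. The shares over all measured genes were 5.72% lower and 5.59% higher. The thrombomodulin gene Thbd, a target of Klf2 and Klf4 in endothelium, had 66 counts in the AI662270 library and 222 in the control library and was 3.45-fold lower (2.61 to 4.61). Txnip, which encodes an inhibitor of thioredoxin, had 1770 and 3996 counts in the AI662270 and control libraries and was 2.31-fold lower (2.19 to 2.45). Plau and Nos2, both reported as Klf6 targets, had log2 ratios of -2.07 and 2.03. Among glucocorticoid, thyroid hormone and clock genes, which share regulators with Klf9, 2 were lower and 2 higher of 10 measured, with a median of 0.06. Dusp1, a MAP kinase phosphatase gene, was 3.89-fold lower (3.63 to 4.16) and the kinase gene Sgk1 3.40-fold lower (2.76 to 4.22). The clock genes Nr1d1 and Dbp had 189 and 69 counts in the AI662270 library, against 85 and 29 in the control library, ratios of 2.17 and 2.32.

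**Figure D5:**
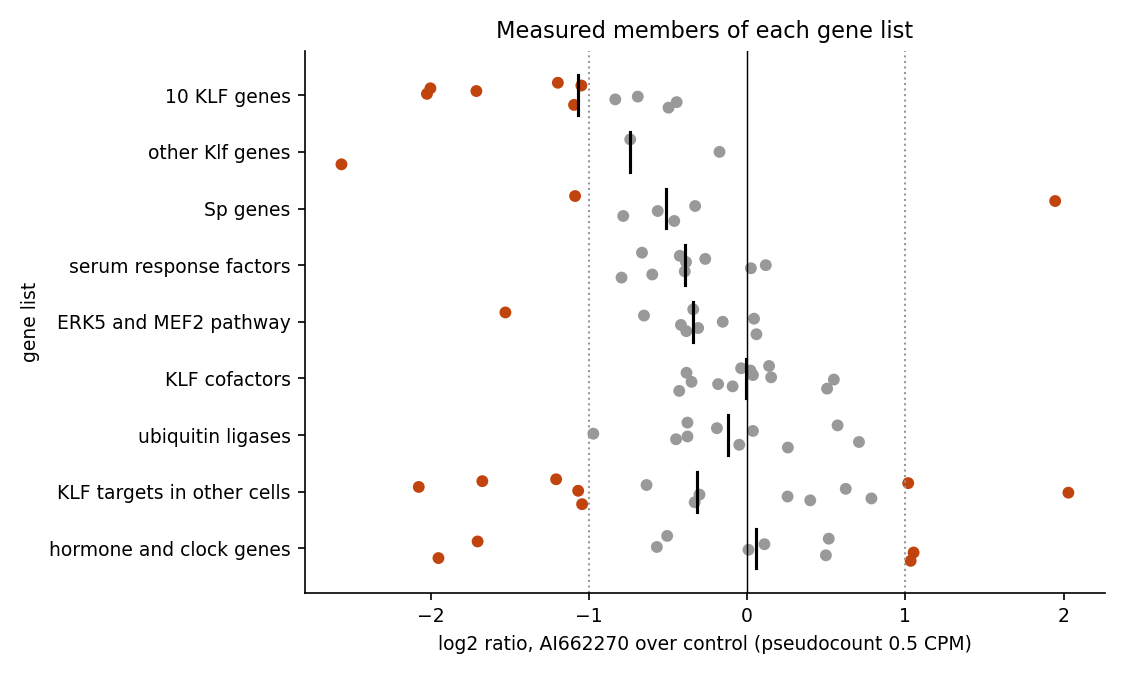
Log2 ratio, AI662270 library over control, with 0.5 CPM added, for measured genes of the KLF set and of 8 other lists. Each point is a gene, orange where it is past the 2-fold rule, black bars are list medians and dotted lines stand at -1 and 1. The KLF set has its median at -1.07, and all of its points lie below 0.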

How the data were processed

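RNA of 2 SV40 MES13 sublines was sequenced, 1 library per group. The submitters' processing notes list TopHat2, CASAVA 1.4 and mm10. Which counter, annotation and strand option were used is not given in the sources used here. Per the file headers and values, the deposited counts are whole, unnormalized reads per gene. The deposited FPKM columns are counts per length over a common divisor of 15391166 in both libraries, so they hold raw count ratios. The log2 fold changes and adjusted p-values are the authors' own, from 1 library against 1 per the file headers. They are cited as the authors' deposited table. Another 4 columns of per-sample values were not used.

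Libraries were scaled with TMM factors of edgeR 4.0.16 in R 4.3.3 (1.03 for the AI662270 library and 0.967 for the control library). CPM and ratios were computed in Python 3.11.15 with scipy 1.17.1. Genes averaging 1 CPM or more over the 2 libraries were taken as measured. The pseudocount was 0.5 CPM, so log2 ratios understate changes of low genes and folds are ratios of CPM without it. Intervals are exact at 95% and reflect counting error alone, as no molecular identifiers are named. Where a symbol had several rows, the most abundant was taken. The members and lists were chosen with earlier results of these data known. Named genes were the 10 members, other Klf and Sp genes of at least 1 CPM, the neighbours of members past the rule, and up to 4 members of each list past it or else the 2 most abundant. With 2 libraries no gene could be chosen by likeness of pattern. Scaling was repeated with total counts, size factors of DESeq2 1.42.0 and upper quartiles. Other alternatives were pseudocounts of 0.1 and 2 CPM, deposited FPKM, other filters on low counts, thresholds of 1.5-fold and 3-fold, and the annotation's exon length. Motif matches were searched as exact letters in RefSeq windows, and the 3′ UTRs come from GENCODE M21 transcripts. A protein comparison within the family was not made. Some marker genes are not reported here.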

Additional observations from a re-analysis of the deposited data

How the results depend on the processing

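No paired analysis was possible because each group held 1 library. Over 60 values of single members under 6 alternatives, 55 stayed on their side of the rule, 5 no longer passed it (4 for Klf7 and 1 for Klf11) and 0 changed sign. The number of lower members was 4 with scaling by total counts, 5 with upper quartiles, with 2 CPM added and on deposited FPKM, 8 at a threshold of 1.5-fold and 3 at 3-fold, and no member was higher under any alternative run. The summed KLF ratio was 0.391 as reported, 0.418 with total counts and 0.410 with upper quartiles. Of 13268 measured genes, 759 were lower and 742 higher as reported. With total counts 615 were lower and 870 higher of 13264 genes, and with upper quartiles 655 and 820 of 13271. With 2 CPM added 573 were lower and 400 higher, and on FPKM 556 and 486. At a mean of at least 5 CPM, 572 of 10902 genes were lower and 391 higher. At 1.5-fold 1893 were lower and 1705 higher, and at 3-fold 262 and 247. With the exon length of the annotation 2 members, Klf9 and Klf3, took another place in the order of levels in either library. Among the members only the length of Klf9 differed. By construction a stricter threshold or filter keeps fewer genes. Another scaling multiplies all ratios by a common factor, and a larger pseudocount moves log2 ratios toward 0. The cause of these shifts was not tested further. DESeq2 gave both libraries a size factor of 1, so that scaling kept raw ratios. Klf2 and Klf4, with 141 and 125 counts in the AI662270 library, have the widest intervals, and spread between cultures cannot be known from 1 library per group.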
